A study of Mus musculus with 6 samples.

Results

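The 10 genes of heart muscle described here were measured in MCEC, a mouse cardiac endothelial cell line: the atrial myosin light chain genes Myl7 and Myl4, the natriuretic peptide genes Nppa and Nppb, and the sarcomere genes Tnnt2, Tnni3, Actc1, Myh6, Myh7 and Ttn. They are 10 of the 78317 genes in the deposited table, matched by symbol, and a symbol on several lines was read from the line with the highest summed count. The set was put together with the control and knockdown counts of these same libraries in view, so differences of its genes between the groups are given as descriptions, without p-values. The study lowered Fat4, an atypical cadherin of planar cell polarity and Hippo signalling, in MCEC and set this in the context of tumour vessels and tumour immunity.

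The control group held 3 libraries of wild-type MCEC and the other group 3 libraries of MCEC with a short hairpin RNA against Fat4 (ShFat4), called knockdown here. MCEC is an immortalised line, so none of the 6 libraries was made from heart tissue. Whether the controls carried a non-targeting hairpin, and whether separate cultures stand behind the libraries of each group, was not given in the sources used here. Accordingly, p-values speak only of the spread among these libraries, and that spread may be technical. Each library held 10305810 to 11870091 counts. Fat4 counts were 10, 22 and 31.5 in the controls, against 8.5, 10 and 9 after knockdown, or 1.83 ± 0.80 and 0.85 ± 0.11 CPM (counts scaled to a common library total; SD, n = 3). The knockdown libraries were low throughout, but control replicate 1 lay among them, so the groups overlapped. The log2 fold change of Fat4 was -1.17 (SE 0.35, adjusted p = 0.033 by the quasi-likelihood test of edgeR). That call was lost in 7 of 14 alternatives, among them leaving out control replicate 2 or 3 or any knockdown library, with adjusted p up to 0.205.

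Defining endothelial genes were nearly absent, against the line's name: of 10 markers, Tie1, Vwf, Erg, Cldn5 and Emcn had no count in any library, and Cdh5 had 1 count in each group. Pecam1, Kdr and Tek gave a trace, with summed counts of 17.99, 14 and 6.5 in control and 17.92, 15 and 3 in knockdown libraries. The summed level of the 10 endothelial markers was 7.92 to 8.79 CPM in control, against 7.4 to 9.31 CPM in knockdown libraries, mostly from Egfl7. Mesothelial and epicardial markers summed to 1701 to 1795 CPM in control, against 1516 to 1561 CPM in knockdown libraries, mostly from Upk1b and Upk3b. Of the 10, Tcf21 was at 0, and Krt8 and Krt18 had only 1.10 and 1.14 CPM in the controls. Fibroblast markers summed to 2394 to 2478 CPM and 1793 to 1956 CPM, mostly from Col1a1 and Col3a1. Of the 9, Lum was at 0, Postn and Pdgfrb gave a trace, and Pdgfra and Col1a2 had 3.50 and 1.11 CPM in the controls. Of 9 tested mesothelial markers, 0 rose and 3 fell by edgeR (0 higher and 3 lower at an unadjusted p under 0.05 and with limma-voom, 0 and 2 with DESeq2, which gave 7 of the 9 an adjusted p), namely Lrrn4 (log2 fold change -0.57, edgeR adjusted p = 0.000106), Upk3b (-0.42) and Wt1 (-0.19). The Wt1 call was lost in 10 of 16 alternatives, among them leaving out any single library, the replicate block and the GC and length correction. Over all genes tested, edgeR called 8.94% higher and 8.44% lower, the background for each list of genes here and below. Of 6 tested fibroblast markers, 1 rose and 2 fell by edgeR and limma-voom. With DESeq2, which gave 5 of the 6 an adjusted p, 0 rose and 2 fell. At edgeR's unadjusted p under 0.05, 2 were higher and 3 lower. Col3a1, at a log2 fold change of -0.64 (edgeR adjusted p = 1.17e-05), and Col1a1, at -0.38 (1964 ± 47.6 to 1513 ± 79 CPM; adjusted p = 0.000685), fell. Thy1 rose, at 0.31 (edgeR adjusted p = 0.0171), a result lost with DESeq2 and without control replicate 2 or knockdown replicate 2. Egfl7, the 1 endothelial marker tested, had 7.25 ± 0.29 and 7.39 ± 0.78 CPM (SD, n = 3; edgeR adjusted p = 0.89). Both the mesothelial and the fibroblast sums were lower in the knockdown libraries, and their part in the values below was not tested.

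Cardiac muscle contracts as myosin heavy chains, each carrying an essential and a regulatory light chain, pull on actin filaments under the control of the troponin complex, while titin spans the sarcomere as a spring. Myl7 encodes the regulatory and Myl4 the essential light chain of atrial myosin, and both are also active in the embryonic ventricle. Nppa and Nppb encode the hormone precursors ANP and BNP, which heart muscle secretes under stretch and which act through guanylyl cyclase receptors on kidney and vessels.

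The promoters of the natriuretic peptide and atrial light chain genes are shown. Counts of these genes ran from none in Nppa, as in Myh6 and Myh7, to the highest of the set in Myl7. Each sequence covers 250 bases before to 50 bases after the transcript start (RefSeq, GRCm38.p6), 5′ to 3′ along the gene, and capitals mark matches on either strand to the motifs listed after them. The windows are chr11:5898733-5899032 (- strand) for Myl7, chr4:147985650-147985949 (+ strand) for Nppb, chr4:148000472-148000771 (+ strand) for Nppa and chr11:104550413-104550712 (+ strand) for Myl4.
Myl7: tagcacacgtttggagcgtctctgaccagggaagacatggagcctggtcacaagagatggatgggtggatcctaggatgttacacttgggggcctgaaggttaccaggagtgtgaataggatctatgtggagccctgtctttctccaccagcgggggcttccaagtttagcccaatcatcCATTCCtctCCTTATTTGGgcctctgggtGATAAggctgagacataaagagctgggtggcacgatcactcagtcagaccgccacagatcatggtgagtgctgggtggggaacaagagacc
Nppb: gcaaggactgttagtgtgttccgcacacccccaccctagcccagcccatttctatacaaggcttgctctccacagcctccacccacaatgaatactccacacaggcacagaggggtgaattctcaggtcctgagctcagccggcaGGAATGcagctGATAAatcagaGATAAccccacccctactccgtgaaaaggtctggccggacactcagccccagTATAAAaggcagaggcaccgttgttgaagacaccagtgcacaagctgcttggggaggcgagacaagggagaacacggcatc
Nppa: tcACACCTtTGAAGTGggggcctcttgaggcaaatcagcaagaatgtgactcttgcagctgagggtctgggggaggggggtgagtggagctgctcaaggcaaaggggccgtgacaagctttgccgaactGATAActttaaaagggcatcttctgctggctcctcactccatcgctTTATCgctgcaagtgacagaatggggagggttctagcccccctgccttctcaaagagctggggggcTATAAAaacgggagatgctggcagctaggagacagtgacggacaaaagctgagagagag
Myl4: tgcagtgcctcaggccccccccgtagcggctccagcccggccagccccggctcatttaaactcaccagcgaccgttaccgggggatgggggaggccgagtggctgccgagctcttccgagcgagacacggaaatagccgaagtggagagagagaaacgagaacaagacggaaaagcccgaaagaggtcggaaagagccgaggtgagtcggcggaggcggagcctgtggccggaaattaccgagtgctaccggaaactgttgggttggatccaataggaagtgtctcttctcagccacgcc
The motifs searched were GATAA (GATA factors), CATTCC (the MCAT element of TEAD factors), TNAAGTG (NKX2-5), AGGTGT (T-box factors), TATAAA (the TATA box), the CArG box of SRF and the MEF2 site. No matches overlapped one another.

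The Myl7 window held CATTCC at 70 to 65 bases before the start (-70 to -65), a CArG box at -61 to -52 and GATAA at -41 to -37. The Nppb window held CATTCC on the opposite strand at -105 to -100, GATAA at -94 to -90 and at -83 to -79, and TATAAA at -31 to -26. Myl7 and Nppb, the pair with higher values in the knockdown libraries, thus both held an MCAT and a GATA match. The same pair of motifs was also matched in the window of a start of Tnnt2, whose groups overlapped. CATTCC without GATAA was matched for Ttn and for Myh6 and a start of Myh7, which had no count. GATAA without CATTCC was matched for Nppa and Tnni3. Nppa, with no count, held 2 GATAA matches, 1 TNAAGTG, 1 AGGTGT and 1 TATAAA, whereas Myl4, whose counts lay lower in the knockdown libraries, held none of the 7 motifs. The annotated start of Myl4 lies 43 bases from that of Cdc27 on the opposite strand. The Myl4 window may thus lie largely within Cdc27, and no other start of Myl4 was searched. Among 32851 promoters of the same length, 25.4% held GATAA, 14.7% CATTCC, 13.6% TATAAA, 13.7% AGGTGT, 11.5% TNAAGTG, 1.63% a CArG box and 3.19% a MEF2 site. A match is a description of the sequence, and a missing match says only that these letters are not in this window.

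**Figure D1:**
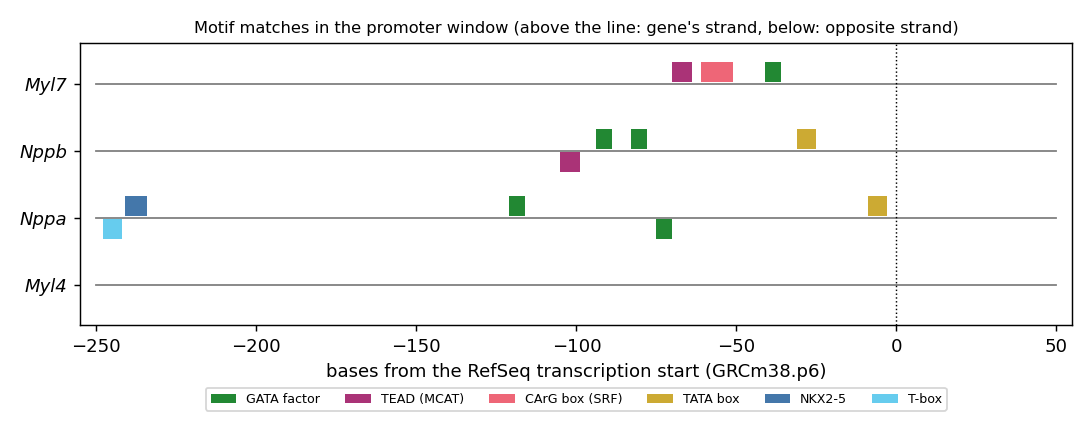
Motif matches in the promoter windows of Myl7, Nppb, Nppa and Myl4 (y axis), plotted by distance from the transcript start in bases (x axis), with a colour per motif, above the line for the gene's strand and below it for the opposite strand. Myl7 and Nppb both hold an MCAT and a GATA match, and Myl4 holds no match. The window of a start of Tnnt2, not plotted, holds the same pair, and the groups of Tnnt2 overlapped. The Myl4 window may lie largely within Cdc27. The share of all promoters with both motifs is not given here.

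Of the 10 genes, 4 were kept by the filter on low counts and entered the test (Myl7, Nppb, Myl4 and Tnnt2), 3 gave a trace of counts (Tnni3, Actc1 and Ttn) and 3 had no count in any library (Nppa, Myh6 and Myh7). The filter asked for about 10 counts, or 0.90 CPM, in enough libraries. Myl7 and Myl4 reached this level in all 6 libraries, Nppb in 2 control and 3 knockdown libraries, Tnnt2 in 1 and 2, and Ttn, just outside, in 1 and 0. Nppb therefore passed mainly through the group in which it was high. Of the 10 genes, 2 lay past the threshold of adjusted p under 0.05 with higher values in knockdown libraries, beside 8.94% of all 13372 genes tested, and 0 with lower values, beside 8.44%. By edgeR's unadjusted p under 0.05, 2 were higher, beside 15.3% of all genes, and 1 was lower, beside 15.9%. DESeq2 called 1 higher, beside 7.5%, and 0 lower, beside 5.18% of the genes to which it gave an adjusted p, which among the 10 was only Myl7. With limma-voom these were 2, beside 8.8%, and 0, beside 7.88%. Groups did not overlap for 3 of the 10, beside 34.9% of all genes tested: Myl7 and Nppb were higher, beside 17.4%, and Myl4 lower, beside 17.5%. In either direction edgeR called 2 of the 10, beside 17.4%. Because the genes were picked on this contrast, nothing is read from these counts.

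Levels between genes were compared per kilobase of exon, using the deposited merged exon length of each gene. This assumes reads along whole transcripts, and transcripts that hold all merged exons. The mean over 6 libraries was 19 CPM per kb for Myl7 (range 12.3 to 29.7), 2.18 for Nppb (1.12 to 3.54) and 0.387 for Myl4 (0.245 to 0.476). Below them came Tnni3 at 0.149 (0 to 0.352), Tnnt2 at 0.103 (0.0527 to 0.152), Actc1 at 0.00919 and Ttn at 0.00431 CPM per kb. The ranges of Myl7, Nppb and Myl4 did not meet, while Tnni3 overlapped both Myl4 and Tnnt2. The order below Myl7 depended on exon length, 781 bases for Nppb, 4637 for Myl4, 2063 for Tnni3 and 7728 for Tnnt2. In CPM without length, Nppb (0.87 to 2.77) and Myl4 (1.13 to 2.21) overlapped, and Tnnt2 had a higher mean than Tnni3 (0.798 and 0.307). Myl7 was the best expressed of the 10 either way, yet 62.6% of genes tested had a higher mean CPM. For Nppb and Myl4 that share was 90.2% and 89.5%. These shares use CPM without length, which places short genes such as Myl7 (590 exonic bases) and Nppb lower. No share per kb is given here.

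Myl7 (ENSMUSG00000020469; GRCm39 chromosome 11, 5846637 to 5848782, - strand; 590 exonic bases) had 86, 83 and 89 counts in the controls, against 155, 133 and 193 after knockdown. Every knockdown library lay above every control library, and knockdown replicate 3 was the highest. In CPM these were 8.35, 7.33 and 7.24 against 13.8, 13 and 17.5, with means of 7.64 ± 0.62 and 14.8 ± 2.39 (SD, n = 3). The fitted log2 fold change was 0.96 (SE 0.13), or 1.94-fold, the rank of 39 from the highest among 13372 genes. That rank is only a description, since Myl7 was picked on this contrast. The summed counts had a ratio of 1.95 (exact 95% interval 1.67 to 2.28, counting error only). The control counts varied less than counting error alone would give, with a variance of 0.549 times the mean, and the knockdown counts varied more, at 4.27 times. Without knockdown replicate 3 the log2 fold change was 0.82, the lowest of 16 alternatives. Since RNA was taken from bulk cultures, a larger share of cells with Myl7 and more Myl7 RNA per cell cannot be told apart, here and for the genes below.

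**Figure D2:**
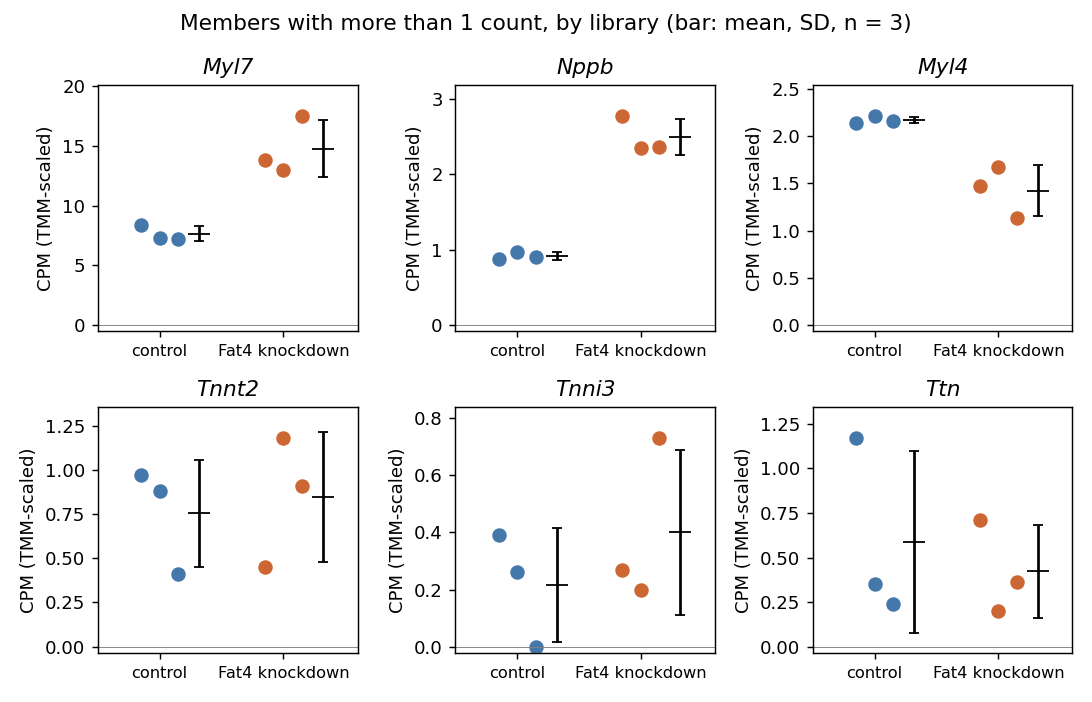
TMM-scaled CPM (y axes from 0) of the 6 heart muscle genes with more than 1 count, for the control and knockdown groups (x axes), with a point per library and a bar for mean ± SD (n = 3). Myl7 and Nppb lie higher in all 3 knockdown libraries, Myl4 lies lower, and the groups of Tnnt2, Tnni3 and Ttn overlap.

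Myl4 (ENSMUSG00000061086; GRCm39 chromosome 11, 104441489 to 104486579, + strand) had 22, 25 and 26.5 counts in the controls, against 16.5, 17 and 12.5 after knockdown. All 3 knockdown libraries lay below the controls, opposite to Myl7. Mean levels were 2.17 ± 0.04 and 1.42 ± 0.27 CPM (SD, n = 3), with a log2 fold change of -0.63 (SE 0.24) that did not pass the threshold. The count ratio was 0.65 (exact 95% interval 0.44 to 0.952). Pieces of 4 antisense or pseudogene annotations lie within the Myl4 span and together took few counts, at most 9.16 over 6 libraries for Gm11663. Whether counting used strand was not given in the sources used here, and without strand these reads cannot be told apart from reads of Myl4.

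The counts of the 2 atrial light chain genes thus lay on opposite sides of their controls. Myl7 had 3.91, 3.32 and 3.36 counts per Myl4 count in the controls, against 9.39, 7.82 and 15.4 after knockdown. The lowest knockdown ratio was above the highest control ratio. Among 7 regulatory light chain genes, Myl7 made up 2.23% ± 0.194 of the summed level per kb in the controls, against 4.06% ± 0.709 after knockdown (SD, n = 3). Among 5 essential light chain genes, Myl4 made up 0.177% ± 0.0118 and 0.101% ± 0.0201, by the same merged exon lengths. Both remained small shares, since the non-muscle genes Myl12a, at 509 and 538 CPM per kb, and Myl6, at 264 and 302 CPM per kb, supplied most of these sums.

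**Figure D3:**
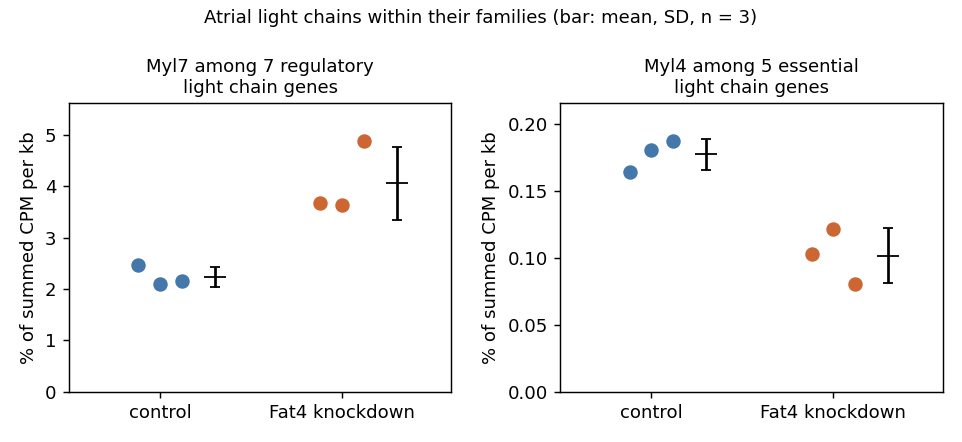
Share of Myl7 in the summed level per kb of 7 regulatory light chain genes and of Myl4 in that of 5 essential light chain genes, in percent (y axes from 0), with a point per library and a bar for mean ± SD (n = 3). The Myl7 share is 2.1 to 2.46% in control and 3.63 to 4.88% in knockdown libraries, and the Myl4 share is lower in all 3 knockdown libraries.

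Of 17 other genes, namely light chains, their kinases, phosphatase subunits and the ubiquitin ligase Mylip, 8 were tested, 1 rose and 0 fell by edgeR, with 1 higher and 0 lower at an unadjusted p under 0.05 and 1 and 0 by limma-voom and by DESeq2, which gave 6 of the 8 an adjusted p. The median log2 fold change was -0.03, beside -0.01 over all genes. Myl6, the essential light chain of non-muscle and smooth muscle myosin, rose from 840 ± 51.2 to 963 ± 16.1 CPM (mean ± SD of 3 libraries per group; log2 fold change 0.20, SE 0.06, edgeR adjusted p = 0.0316). This call was lost in 7 of 16 alternatives, among them leaving out control replicate 2 or 3 or any knockdown library. Myl12a had 1709 ± 36 and 1808 ± 57.2 CPM (edgeR adjusted p = 0.342). The ventricular light chain genes Myl2 and Myl3 had no count, nor did Myl1, Myl10 and Mylk4.

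Nppb (ENSMUSG00000029019; GRCm39 chromosome 4, 148070245 to 148071662, + strand; 781 exonic bases) had 9, 11 and 11 counts in control, against 31, 24 and 26 in knockdown libraries. All 3 knockdown libraries lay above all 3 controls. Mean levels were 0.91 ± 0.05 and 2.49 ± 0.24 CPM (SD, n = 3). The fitted log2 fold change was 1.44 (SE 0.25), or 2.71-fold, the third largest value among 13372 genes, of which 0.224% were at least 2-fold higher by the estimate. That rank is only a description, since Nppb was picked on this contrast and passed the filter mainly through the knockdown group. The count ratio was 2.73 (exact 95% interval 1.79 to 4.28). Exact Poisson 95% intervals were 4.12 to 17.1 for the lowest control count, 9, and 21.1 to 44 for the highest knockdown count, 31. The interval of the control counts of 11, 5.49 to 19.7, overlapped those of the knockdown counts of 24 and 26, 15.4 to 35.7 and 17 to 38.1. The counts spread less between libraries than Poisson counting gives, with variances of 0.0318 and 0.251 times the mean. Across 15 alternatives the log2 fold change was 1.28 to 1.48.

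Nppa (ENSMUSG00000041616; GRCm39 chromosome 4, 148085179 to 148086536, + strand) lies 13.5 kb beyond Nppb, and had 0 counts in all 6 libraries, which allows up to 3 counts, or 0.24 to 0.29 CPM, per library. The overlapping antisense gene Gm13054 had 6 counts in all. Clcn6, next to Nppa, had 12.9 ± 0.81 CPM in control, against 11.4 ± 0.29 CPM in knockdown libraries (edgeR adjusted p = 0.231). Plod1, on the other side of Nppb, had a log2 fold change of -0.24 (edgeR adjusted p = 0.198). Pold2, a neighbour of Myl7, had a log2 fold change of -0.14 (edgeR adjusted p = 0.142), and passed the threshold only under library-size scaling (adjusted p = 0.0417) among 16 alternatives. Cdc27, whose annotated start lies 43 bases from that of Myl4 on the opposite strand, had 57.9 ± 3.74 and 58.4 ± 1.52 CPM (edgeR adjusted p = 0.936).

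Of 15 other genes of natriuretic peptide processing, reception, degradation and signalling, 6 were tested, 1 rose and 2 fell by edgeR, with a median log2 fold change of -0.12. DESeq2, which gave 4 of the 6 an adjusted p, and limma-voom each called 0 higher and 2 lower. At edgeR's unadjusted p under 0.05, 1 was higher and 2 were lower. Pcsk6, a proprotein convertase of the furin family, fell from 4.48 ± 1.11 to 2.37 ± 0.62 CPM (mean ± SD of 3 libraries per group; log2 fold change -0.93, SE 0.23, edgeR adjusted p = 0.0109), a result lost without control replicate 2 or 3 or knockdown replicate 1 or 2. Furin, which cleaves proBNP, had 44.7 ± 4.45 and 40.6 ± 2.18 CPM (edgeR adjusted p = 0.253). Ide, the insulin-degrading enzyme that also cleaves natriuretic peptides, fell from 84.3 ± 1.27 to 67.8 ± 6.99 CPM (log2 fold change -0.31, SE 0.07, edgeR adjusted p = 0.0073), a result lost without knockdown replicate 1 or 2. Prkg2, a cGMP-dependent kinase, rose from 15.7 ± 0.83 to 19.7 ± 2.63 CPM (log2 fold change 0.33, SE 0.10, edgeR adjusted p = 0.0376). That call was lost in 8 of 16 alternatives, among them leaving out any control library or knockdown replicate 1 or 2. The receptors gave too few counts for the test, with summed counts in control and knockdown libraries of 28 and 27 for Npr1, 1 and 3 for Npr2, and 21 and 31 for the clearance receptor Npr3. Corin, the convertase of proANP, had 1 count in all.

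The thin filament genes were at the edge of detection. Tnnt2 (GRCm39 chromosome 1, 135764092 to 135779998), cardiac troponin T, had 10, 10 and 5 counts in control and 5, 12 and 10 in knockdown libraries, which overlapped (0.75 ± 0.30 and 0.84 ± 0.37 CPM; log2 fold change 0.17, SE 0.42). Tnni3 (chromosome 7, 4521304 to 4527228), cardiac troponin I, had 4, 3 and 0 counts against 3, 2 and 8, and its span overlaps Dnaaf3 on the same strand. The Tnni3 count ratio was 1.94 with an exact 95% interval of 0.72 to 5.75. Actc1 (chromosome 2, 113877763 to 113884029), cardiac actin, had a single count, in knockdown replicate 1. The Tnnt2 count ratio was 1.13 (exact 95% interval 0.631 to 2.03, counting error only). No difference was detected in Tnnt2, though changes within that interval could not be seen at this depth. Tnni3 and Actc1 gave too few counts for the test.

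Among the thick filament and elastic genes, Myh6 (GRCm39 chromosome 14, 55179378 to 55204384) and Myh7 (55208141 to 55232083), the alpha and beta cardiac heavy chains, had 0 counts in all 6 libraries, which allows up to 3 counts per library. Ttn (chromosome 2, 76534324 to 76812891), with 117334 exonic bases, had 12, 4 and 3 counts in control and 8, 2 and 4 in knockdown libraries. The groups overlapped, and the count ratio was 0.77 (exact 95% interval 0.357 to 1.62). The light chain genes Myl7 and Myl4 were thus detected in libraries in which neither cardiac heavy chain gave a count.

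The paralogs of these genes outside heart muscle were abundant in part. Of 27, 12 were tested, 1 rose and 1 fell by edgeR, with a median log2 fold change of 0.07. DESeq2, which gave 9 of the 12 an adjusted p, and limma-voom each called 1 higher and 0 lower. At edgeR's unadjusted p under 0.05, 4 were higher, beside 15.3% of all genes, and 2 lower, beside 15.9%. Actb had 11219 ± 119 and 10696 ± 236 CPM (SD, n = 3; edgeR adjusted p = 0.389). Acta2, smooth muscle actin, rose from 138 ± 5.67 to 159 ± 2.80 CPM (log2 fold change 0.21, edgeR adjusted p = 0.0232), a result lost under library-size scaling, under the GC and length correction and without control replicate 2 or knockdown replicate 1 or 2. Myh10, a non-muscle heavy chain, fell from 83.9 ± 3.19 to 72.4 ± 6.40 CPM (log2 fold change -0.21, edgeR adjusted p = 0.0469), a result lost in 11 of 16 alternatives, among them leaving out any library but knockdown replicate 3. Reads shared among actin genes of near-identical coding sequence make the values of Actc1, Acta1 and Acta2 uncertain.

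Few other markers of heart muscle were detected. Of 29, 14 had no count in any library, including Myl2, Myl3, Mybpc3, Pln and Ryr2, 12 gave a trace and 3 were tested. None of those 3 passed the threshold of edgeR or limma-voom, and DESeq2 gave none of them an adjusted p, while 0 were higher and 1 lower at edgeR's unadjusted p under 0.05. Their median log2 fold change was 0.34. Cox7a1, a muscle form of a cytochrome oxidase subunit, had 2.12 ± 0.62 and 1.42 ± 0.15 CPM (SD, n = 3; edgeR adjusted p = 0.156), and Myoz2, a Z-disc protein, 1.01 ± 0.58 and 1.31 ± 0.62 CPM (edgeR adjusted p = 0.625). The summed level of the 29 was 3.58 to 6.31 CPM in control, against 5 to 6.37 CPM in knockdown libraries, which overlapped. Skeletal muscle markers summed to 5.87 to 6.51 and 6.03 to 6.18 CPM, with Myod1, Myf5 and Myl1 of 11 at 0. None of the 4 tested passed by edgeR or limma-voom, DESeq2 gave none of them an adjusted p, and 1 was higher and 0 lower at edgeR's unadjusted p under 0.05. Smooth muscle markers summed to 721 to 786 and 777 to 849 CPM, mostly from Tagln, Acta2 and Smtn, with Myocd of 10 at 0. Another 6 gave only a trace, among them Myh11 with 1.5 counts in all. Of 3 tested, Acta2 rose and Smtn fell (log2 fold change -0.29, edgeR adjusted p = 0.00743). At edgeR's unadjusted p under 0.05, 2 of the 3 were higher and 1 was lower. The Smtn result was lost under the GC and length correction (-0.14, adjusted p = 0.123). The part of these markers in the values of Myl7 and Nppb was not tested.

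**Figure D4:**
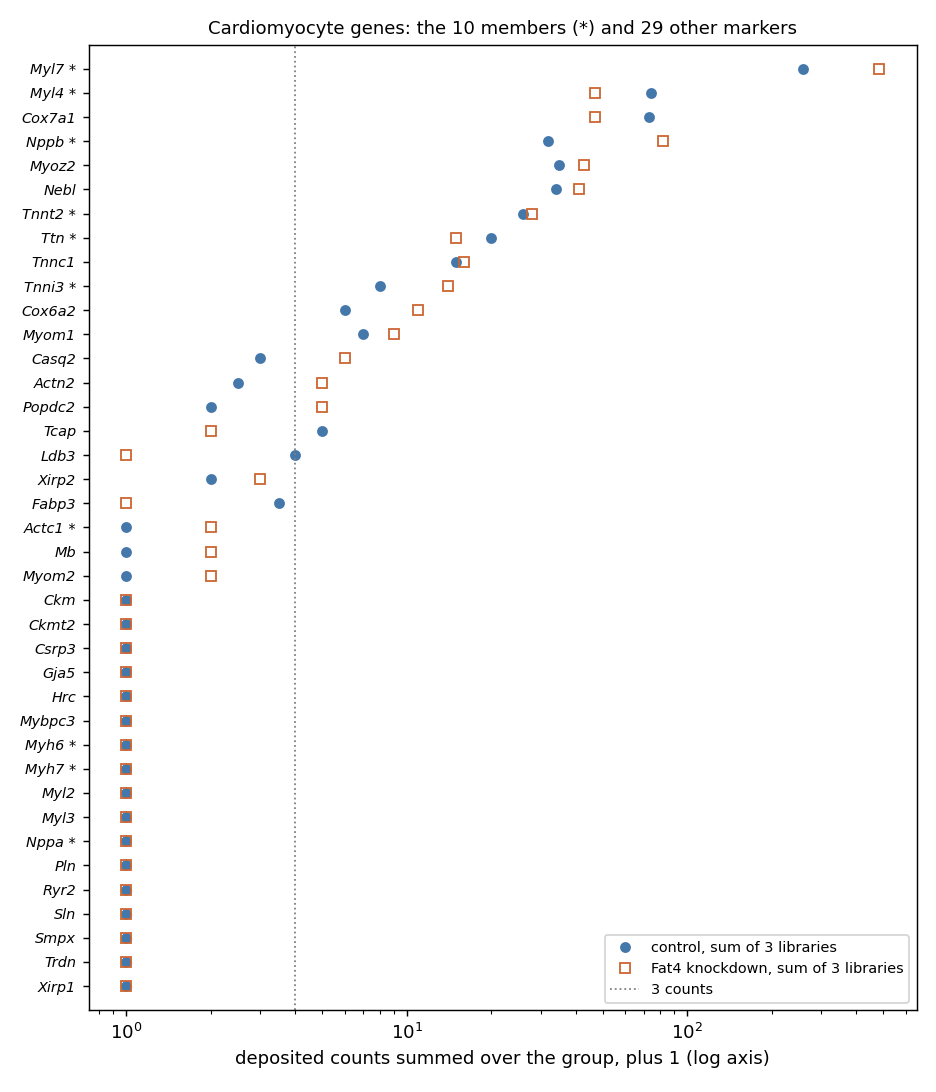
Deposited counts summed over the 3 libraries of each group, plus 1 (x axis, log scale), for the 10 heart muscle genes (marked *) and 29 other heart muscle markers (y axis), with filled circles for control, open squares for knockdown and a dotted line at 3 counts. Myl7 lies far to the right at 258 and 481 counts, while 14 of the 29 markers and Nppa, Myh6 and Myh7 sit at 0 counts in both groups.

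Several transcription factors known from cardiac promoters were well expressed. Of 24, 13 were tested, 0 rose and 2 fell by edgeR, with 0 higher and 2 lower at an unadjusted p under 0.05, by limma-voom and by DESeq2, which gave 11 of the 13 an adjusted p. The median log2 fold change was -0.07. Gata6 fell from 126 ± 6.63 to 104 ± 3.83 CPM (mean ± SD of 3 libraries per group; log2 fold change -0.27, SE 0.06, edgeR adjusted p = 0.00856), a result lost without control replicate 2 and under the GC and length correction. Tead1, a binder of MCAT elements, fell from 195 ± 6.61 to 168 ± 12.6 CPM (log2 fold change -0.22, SE 0.06, edgeR adjusted p = 0.026), a result lost in 5 of 16 alternatives, among them leaving out control replicate 2 or 3 or knockdown replicate 1 or 2. Gata4 had 39.5 ± 2.15 and 37 ± 0.75 CPM (edgeR adjusted p = 0.366). Nkx2-5 had 3 counts in control and 4 in knockdown libraries, and Tbx5, Hand1, Isl1, Myocd and Irx4 had none.

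Of 22 genes known to respond to load and hypertrophy in heart muscle, 13 were tested, 2 rose and 1 fell by edgeR, with a median log2 fold change of 0.00. DESeq2, which gave 11 of the 13 an adjusted p, called 2 higher and 0 lower, and limma-voom 2 and 1. At edgeR's unadjusted p under 0.05, 3 were higher and 1 was lower. Ankrd1, a stretch-responsive repeat protein of the sarcomere and a target of YAP, rose from 147 ± 2.29 to 233 ± 13.2 CPM (mean ± SD of 3 libraries per group; log2 fold change 0.66, SE 0.06, edgeR adjusted p = 1.01e-05). Fhl2, a LIM protein that binds titin, rose from 18.4 ± 1.43 to 24.7 ± 2.41 CPM (log2 fold change 0.43, SE 0.09, edgeR adjusted p = 0.00629), in 16 of 16 alternatives too. Hdac5, a class II histone deacetylase, fell from 48.1 ± 1.47 to 40 ± 2.43 CPM (log2 fold change -0.27, edgeR adjusted p = 0.0153), a result lost in 5 of 16 alternatives, among them leaving out control replicate 3 or knockdown replicate 1 or 2. Ccn2, another target of YAP, had 683 ± 21 and 683 ± 17.7 CPM (edgeR adjusted p = 0.999).

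**Figure D5:**
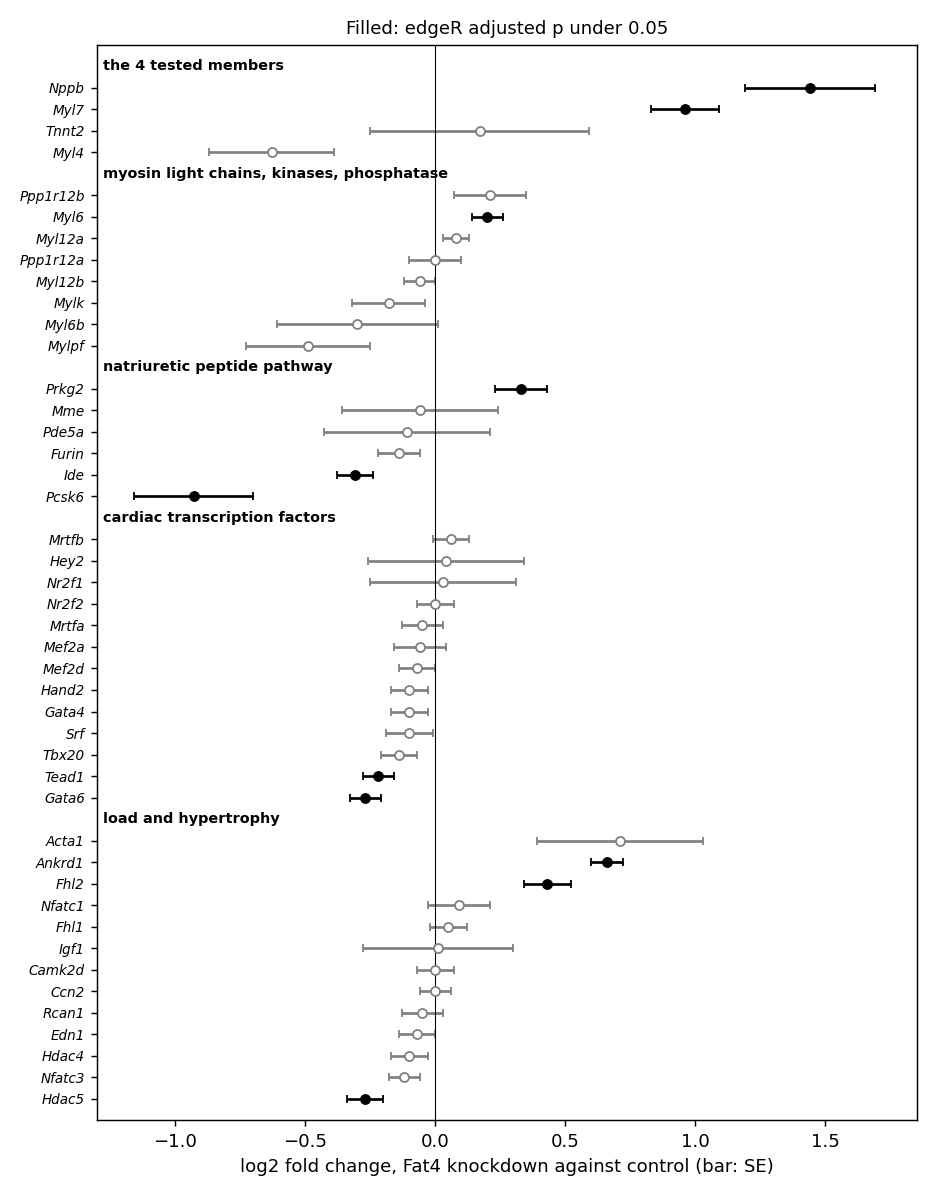
Log2 fold change, knockdown against control (x axis, bars show SE), of the tested heart muscle genes and of the tested genes of 4 lists (y axis), with filled points for an edgeR adjusted p under 0.05. Nppb at 1.44 and Myl7 at 0.96 lie highest, Myl4 lies at -0.63, and among the lists Ankrd1 at 0.66 is the highest filled point.

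Over the 6 libraries, genes most like Myl7 among 8059 genes with a mean of at least 10 CPM included Cystm1 (Pearson r = 0.9943 on log2(CPM + 0.5)) and Ostm1 (0.9923). Those most like Nppb were Rhob (0.9976), Dhx15 (0.9975) and Vps50 (0.9936). The points share libraries, depth and the split into 2 groups, so these values only describe how alike the levels ran.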

How the data were processed

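Messenger RNA of 6 MCEC libraries was sequenced as tagmented cDNA, per the labels. The submitters' processing notes list STAR 2.7.11, fastp 0.24.0, FastQC 0.12.1, MultiQC 1.32, SAMtools 1.22.1 and the GRCm39 build. Counter, strandedness and annotation were not given in the sources used here. Per gene, the authors deposited estimated counts, 29.0% of the nonzero values not whole (tolerance 1e-06), and CPM values, which were not needed. Reads split between features make overlapping or near-identical genes uncertain. Of 78409 lines, 92 spike-ins (total count 0.33) were left out.

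Counts were rounded, filtered with filterByExpr and TMM-scaled, then tested with glmQLFit (robust) and glmQLFTest of edgeR 4.0.16 in R 4.3.3, at a Benjamini-Hochberg adjusted p under 0.05 over 13372 genes. SE is the log2 fold change divided by the square root of F, and CPM uses TMM-scaled library sizes. Ratios of summed counts have exact conditional binomial 95% intervals, and a count of 0 allows 3 counts; both cover counting error only. The heart muscle genes and all lists were chosen with earlier results of these data known. Named genes were the 10 genes, Fat4, up to 4 called and 2 most abundant genes per list, neighbours of Myl7, Nppb, Nppa and Myl4, and the 3 most correlated genes; some genes that the rule takes are left out here, and others outside this rule were named to fill out a list. All 10 matched the RefSeq promoter table; proteins were not used here. Alternatives were scaling by library size, RLE or upper quartile, no filter, at least 1 CPM in 3 libraries, DESeq2 1.42.0, limma-voom (3.58.1), a replicate block, rounding down and leaving out each library. A GC and length correction (mgcv 1.9.3; GC from GRCm38 transcripts by gene identifier, for 95.6% of tested genes) was chosen after seeing the data. The workflow was tested on simulated data.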

Additional observations from a re-analysis of the deposited data

How the results depend on the processing

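Values of the 10 heart muscle genes under the alternatives are descriptions, since the genes were chosen on this contrast. DESeq2 called 1 of the 10 higher and gave Nppb, Myl4 and Tnnt2 no adjusted p. Leaving out each library gave 2 to 2 higher and 0 to 0 lower. Over all genes, lower calls numbered 1129 in the main analysis, 1740 under library-size scaling, 612 with DESeq2 and 694 with the GC and length correction, and higher calls 1195. Leaving out single libraries gave 527 to 1624 higher and 502 to 1453 lower calls; control replicates 2 and 3 and knockdown replicates 1 and 2 each lowered them by over 1.5 times. Library-size scaling moved the median log2 fold change to -0.07 and made 32.9% of calls higher, against 51.4%. Over the other lists, 6 genes rose and 12 fell; 3 rose under library-size scaling and 6 fell with the GC and length correction, and leaving out single libraries gave 2 to 8 and 6 to 12. With a replicate block, 1116 genes rose and 885 fell, and 2 of the 10 genes were higher and 0 lower. Replicate numbers did not pair the libraries: deviations of same-numbered libraries correlated at -0.21, -0.05 and -0.05, and 0 of 6 libraries correlated best with its own number. Counts near 10 per library limit Nppb, Tnnt2 and all genes below them. The cause of these shifts was not tested.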

Other observations

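The skeletal muscle regulatory light chain gene Mylpf, singled out after its values were seen, had 22, 24 and 26 counts in control and 18, 18 and 13 in knockdown libraries. Its level was 2.12 ± 0.01 and 1.52 ± 0.30 CPM (SD, n = 3; edgeR adjusted p = 0.187), and it did not pass the threshold. Its groups did not overlap, as those of Myl4 did not, and levels of Mylpf and Myl4 correlated (Pearson r = 0.99 over 6 libraries that share depth and group). Within the controls, Mylpf was at 2.14, 2.12 and 2.12 CPM and Myl4 at 2.14, 2.21 and 2.16 CPM. These differences are small beside counting error, with a Poisson 95% interval of 13.8 to 33.3 for the Myl4 count of 22. No order within the controls is read from them.

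Tnnt1, the slow skeletal troponin T gene, likewise chosen after its values were seen, had 15, 15 and 22 counts in control and 26, 28 and 21 in knockdown libraries. Its level was 1.52 ± 0.24 and 2.32 ± 0.42 CPM (edgeR adjusted p = 0.106). Gata5, which did not pass the filter, had 9, 14 and 13.5 counts in control and 5, 5 and 7 in knockdown libraries, which did not overlap.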
